A study of Mus musculus with 4 samples.

Results

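The 2 mature arms of miR-122, mmu-miR-122-5p and mmu-miR-122-3p (written miR-122-5p and miR-122-3p), were taken by name from the table of counts, and both were among the 1809 mature miRNAs listed for all libraries. Small RNA was sequenced from exosome preparations of plasma, drawn on day 21 from mice injected i.v. with LLC cells (Lewis lung carcinoma, a mouse tumour line that can be transplanted). The mice were C57BL/6 and either gp49B-/- (gp49B KO), lacking an inhibitory receptor of myeloid cells, or wild type (WT), and both genotypes carried the tumour cells. Each genotype had 2 libraries, pool 1 and pool 2, and each library came from pooled plasma, of 4 samples in gp49B KO and 3 in WT, so the number pooled followed genotype. Nothing in the labels says that the pools came from separate cohorts, so p-values measure the spread between these libraries, which may be technical. Mice without tumour cells were not analysed here.

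Hepatocytes make miR-122 at a very high level and other cells make little of it. The 5p arm is the guide strand, which is loaded into Argonaute proteins and represses mRNAs, and it is known in liver for its part in cholesterol and lipid metabolism and as a host factor of hepatitis C virus. The 3p arm is the passenger strand, most of which is degraded after the hairpin is cut. In blood miR-122-5p is widely used as a marker of liver injury, and much of it travels bound to protein outside vesicles, which polymer precipitation can also bring down. Whether the RNA counted here lay inside vesicles was not tested.

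The comparison miRNAs of liver were miR-192, miR-194, miR-802 and miR-148a, and miR-106b-3p was the miRNA whose pattern over the libraries came closest to that of miR-122-5p. Their mature sequences from RefSeq (GRCm38.p6) are shown so that the comparison set can be recognised by its seeds, which are the bases 2 to 8 in capitals and which pair with target mRNAs. The 5 seeds differ from each other.
miR-192-5p (chromosome 19): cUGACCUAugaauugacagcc
miR-194-5p (chromosomes 1 and 19, the same mature sequence): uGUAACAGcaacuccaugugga
miR-802-5p (chromosome 16): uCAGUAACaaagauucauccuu
miR-148a-3p (chromosome 6): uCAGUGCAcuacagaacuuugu
miR-106b-3p (chromosome 5): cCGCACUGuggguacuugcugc

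Both arms come from 1 hairpin of 66 bases, Mir122, on the plus strand of chromosome 18 (GRCm38). The deposited loci place miR-122-5p at 65248866 to 65248887 and miR-122-3p at 65248901 to 65248920, with 13 bases between them. In GENCODE the hairpin lies in exon 2 (65245359 to 65252621) of the long intergenic noncoding RNA AC157910.3. RefSeq places a second miRNA gene, Mir122b, over the same bases (65248863 to 65248921), and it was not analysed here.

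The libraries held between 1607218 and 3645842 UMIs (unique molecular identifiers, by which copies of 1 RNA molecule are counted as 1), and the pool 2 libraries held more UMIs with fewer reads behind each. Of the miRNA UMIs, miR-16-5p, miR-122-5p and miR-486b-5p together took 42.9% and 63.2% in gp49B KO pools 1 and 2, against 54.4% and 67.1% in WT pools 1 and 2. Pool 2 libraries were thus more concentrated in these 3 miRNAs than pool 1 libraries in both genotypes. Of the 352 miRNAs that averaged at least 100 UMIs, the ratio of each one's share in pool 2 over that in pool 1 had a median of 0.538 in gp49B KO and 0.461 in WT.

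The first question was how much of the plasma small RNA was miR-122-5p in each genotype. In gp49B KO it had 120598 UMIs in pool 1 and 714448 in pool 2, and in WT it had 166478 UMIs in pool 1 and 844242 in pool 2. As a share of miRNA UMIs this was 7.05% (exact 95% binomial interval 7.02 to 7.09%) in gp49B KO pool 1 and 19.7% (19.6 to 19.7%) in gp49B KO pool 2. WT pool 1 had a share of 10.6% (10.5 to 10.6%) and WT pool 2 one of 26.6% (26.6 to 26.7%). It was the second most abundant miRNA of every library except WT pool 2, where it came first, and miR-16-5p, a miRNA of blood cells, was the other. These intervals cover counting error only.

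The share was lowest in gp49B KO pool 1, then WT pool 1, then gp49B KO pool 2, and highest in WT pool 2. No 2 neighbours in this order had overlapping counting intervals, but the genotypes overlapped, since gp49B KO pool 2 lay above WT pool 1. The mean share was 13.4% ± 8.93 in gp49B KO libraries and 18.6% ± 11.4 in WT libraries (SD, n = 2 each). The difference of -5.22 percentage points was smaller than either SD, and the two-sided exact permutation p was 0.667, where 2 against 2 libraries allow no p below 0.333. The difference changed sign without gp49B KO pool 1 (1.09 points) and without WT pool 2 (2.82 points). A share also moves with the other abundant miRNAs in the total, and no change in release from liver was measured. Even if there were one, release by more hepatocytes and more RNA from each could not be told apart in preparations from whole plasma.

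**Figure D1:**
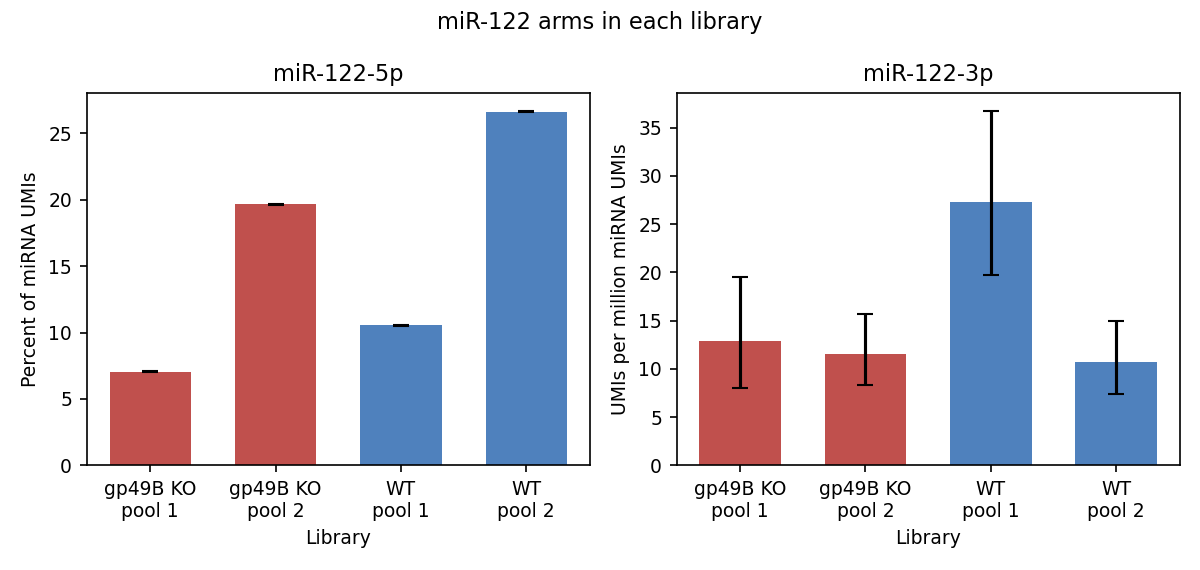
Share of miRNA UMIs taken by miR-122-5p (left, percent) and level of miR-122-3p (right, per 1000000 miRNA UMIs) in each of the 4 libraries. Bars are single libraries, red for gp49B KO and blue for WT, and error bars are exact 95% binomial intervals for counting error: miR-122-5p was higher in both pool 2 libraries, and miR-122-3p stood highest in WT pool 1 at 27.3.

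Within each pool number miR-122-5p was lower in gp49B KO. Scaled on total miRNA UMIs, the ratio of gp49B KO over WT was 0.669 within pool 1 (exact 95% interval 0.664 to 0.673), and within pool 2 it was 0.739 (interval 0.737 to 0.741). With TMM, a scaling by trimmed mean of M values that assumes most miRNAs do not differ, the ratio was 0.755 in pool 1 and 0.620 in pool 2. The choice of scaling therefore set which pool showed the lower ratio. On total UMIs the median ratio of all tested miRNAs with counts was 0.880 in pool 1 and 1.18 in pool 2, against 0.994 and 0.989 with TMM. Relative to that median, which cancels the scaling by arithmetic, miR-122-5p stood at 0.759 in pool 1 and 0.627 in pool 2. A lower ratio than that of miR-122-5p was found for 357 of 1780 miRNAs (20.1%) in pool 1 and for 160 of 1797 (8.90%) in pool 2. Being lower in gp49B KO in both pools was common: 27.2% of the 1797 tested miRNAs were so with TMM and 20.8% on total UMIs. The authors' deposited normalized log2 values were 16.91 and 19.24 in gp49B KO pools 1 and 2, against 17.32 and 19.90 in WT pools 1 and 2, which is a difference of -0.41 in pool 1 and -0.66 in pool 2.

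Fitted over all miRNAs, the genotype difference of miR-122-5p did not pass. In CPM (UMIs per 1000000, after TMM scaling) it had 46949 and 287811 in gp49B KO pools 1 and 2, against 62216 and 464082 in WT pools 1 and 2, or 167380 ± 170315 in gp49B KO and 263149 ± 284162 in WT (SD, n = 2 each). The log2 fold change, gp49B KO over WT, was -0.65 (SE 1.41, 95% interval -3.76 to 2.46), with an adjusted p of 0.99995 by edgeR's quasi-likelihood test with Benjamini-Hochberg adjustment. Of the 1797 miRNAs tested the same fit called 0 (0%) at an adjusted p under 0.05. An unadjusted p under 0.05 was found for 32 of the 1797, fewer than that threshold would pass if no miRNA differed. DESeq2 had 28 of 1809 under it and limma-voom 27 of 1797, and each also called 0. The interval takes in both a lower and a higher level in gp49B KO. The estimate turned positive without gp49B KO pool 1 (0.15) and without WT pool 2 (1.43), and was -1.45 without WT pool 1 and -2.49 without gp49B KO pool 2, each with the lone library of a genotype assumed to vary like the others.

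**Figure D2:**
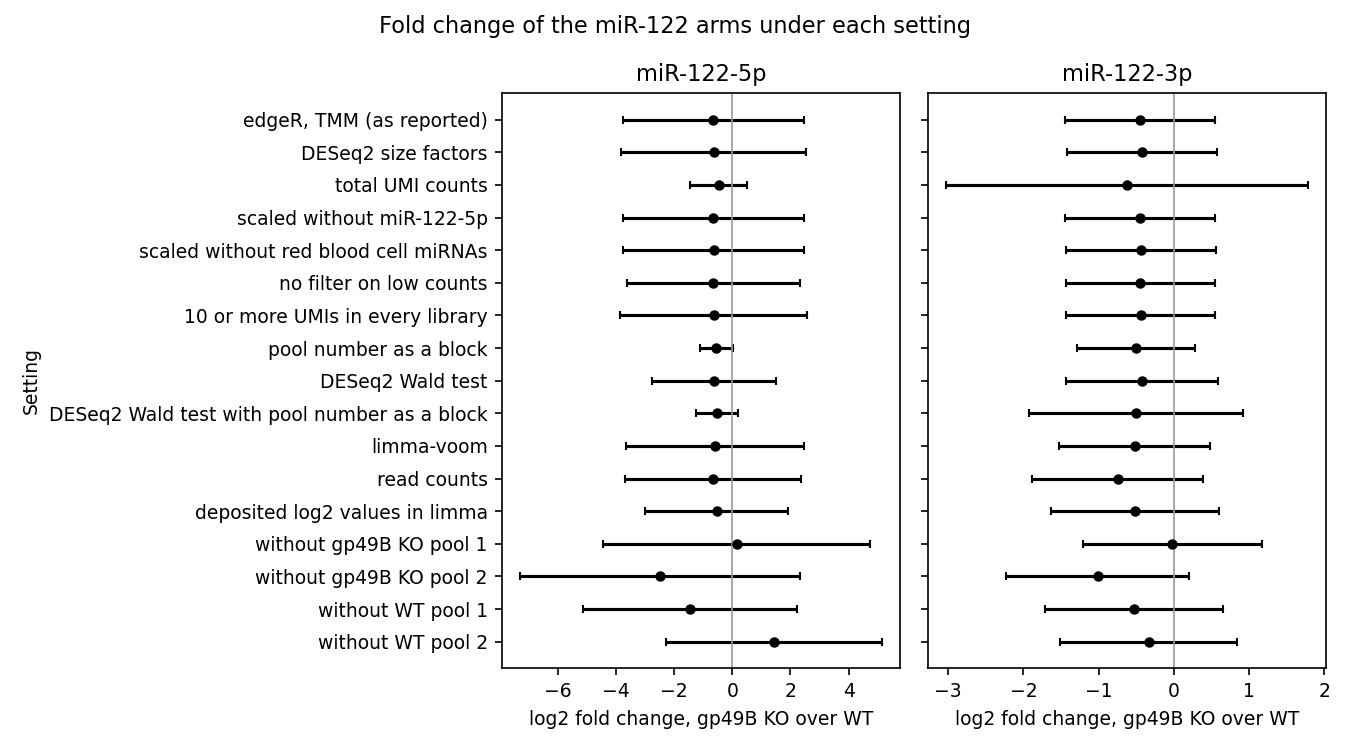
The log2 fold change, gp49B KO over WT, of miR-122-5p (left) and miR-122-3p (right) under each setting, one per line, with 95% intervals as bars and a grey line at 0. Every interval spans 0, and miR-122-5p lies above 0 only where gp49B KO pool 1 (0.15) or WT pool 2 (1.43) was left out.

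For miR-122-5p the pool numbers stood further apart than the genotypes. On total UMIs miR-122-5p was 2.79-fold (2.77 to 2.81) higher in pool 2 than in pool 1 in gp49B KO, and 2.52-fold (2.51 to 2.54) higher in WT. Among the same 352 miRNAs that ratio ranked 4 in gp49B KO and 1 in WT, counted from the highest. With TMM the same ratios were 6.13 in gp49B KO and 7.46 in WT, since the TMM factors were 1.503 and 0.684 in gp49B KO pools 1 and 2, against 1.70 and 0.574 in WT pools 1 and 2. The labels do not say what pool number stands for. The lists of features and the smallest count above 0 also went with it: 10 UMIs in both pool 1 libraries, 2 in gp49B KO pool 2 and 1 in WT pool 2.

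Reads per UMI of miR-122-5p were close to those of its libraries. It had 5.94 and 2.16 reads per UMI in gp49B KO pools 1 and 2, against 5.63 and 1.73 in WT pools 1 and 2, beside the 5.70 and 2.11 of all miRNAs in gp49B KO and the 5.29 and 1.69 of all miRNAs in WT. Counted in reads its share was 7.36% and 20.1% in gp49B KO pools 1 and 2, against 11.2% and 27.3% in WT pools 1 and 2. The 4 libraries thus kept the same order in reads as in UMIs.

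The passenger arm was counted at a very low level. miR-122-3p had 22 UMIs (exact 95% Poisson interval 13.8 to 33.3) in gp49B KO pool 1 and 42 (30.3 to 56.8) in gp49B KO pool 2. In WT it had 43 (31.1 to 57.9) in pool 1 and 34 (23.5 to 47.5) in pool 2. The middle miRNA of the list had 43 and 42 UMIs in gp49B KO pools 1 and 2, against 47 and 31 in WT pools 1 and 2, so the passenger arm stood near the middle of the list in 3 libraries and well below it in gp49B KO pool 1. Its rank among 1809 was 1470 and 898 in gp49B KO pools 1 and 2, against 962 and 792 in WT pools 1 and 2. It had 3.18 and 1.43 reads per UMI in gp49B KO pools 1 and 2, against 3.79 and 1.38 in WT pools 1 and 2, each below the value of all miRNAs in its library.

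Per 1000000 miRNA UMIs, miR-122-3p was 12.9 and 11.6 in gp49B KO pools 1 and 2, against 27.3 and 10.7 in WT pools 1 and 2. On this scale WT pool 1 stood apart and the other 3 libraries had overlapping intervals. With TMM WT pool 1 did not stand apart, at 8.56 and 16.9 CPM in gp49B KO pools 1 and 2, against 16.1 and 18.7 CPM in WT pools 1 and 2. On total UMIs gp49B KO over WT gave a ratio of 0.472 in pool 1 (exact 95% interval 0.269 to 0.807) and 1.08 in pool 2 (interval 0.670 to 1.75), and with TMM it was 0.533 and 0.905. In pool 2 the difference was not detectable at this depth, and its direction flipped with the scaling. The log2 fold change of miR-122-3p was -0.44 (SE 0.45, 95% interval -1.44 to 0.55), with an adjusted p of 0.99995 by edgeR's quasi-likelihood test. Leaving out gp49B KO pool 1 moved it to -0.02, leaving out gp49B KO pool 2 to -1.01. For the share of miRNA UMIs the two-sided exact permutation p was 1, and the difference of -0.000677 percentage points became 0.000149 without WT pool 1. Counted in reads, its share was 0.000719% and 0.000782% in gp49B KO pools 1 and 2, against 0.00195% and 0.000879% in WT pools 1 and 2. There the genotypes did not overlap, and the permutation p was 0.333, the lowest that these libraries allow. The same held with miR-122-5p left out of the total. How many miRNAs do so was not counted for these measures.

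The arms did not move together over the libraries. There were 0.182 and 0.0588 miR-122-3p UMIs per 1000 miR-122-5p UMIs in gp49B KO pools 1 and 2, against 0.258 and 0.0403 in WT pools 1 and 2. Both pool 1 libraries lay above both pool 2 libraries, while the genotypes overlapped (two-sided exact permutation p = 1). The difference of -0.0287 turned to 0.0331 without gp49B KO pool 2 and to 0.0803 without WT pool 1. Summed over the libraries the hairpin gave 1845766 UMIs from the 5p arm and 141 from the 3p arm, or 13091 to 1. Among the 313 hairpins whose arms are paired by name and have at least 400 UMIs together, a limit chosen with these values known, that was the most uneven, ahead of let-7i at 2226 to 1, and the median was 4.60 to 1. The ratio a hairpin can reach grows with the count of its major arm, and miR-122-5p was one of the most abundant here.

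The other liver-enriched miRNAs were compared next, to ask whether they moved with miR-122. They were 9 arms, all listed and tested. They comprised the miR-192 and miR-194 arms, made in liver and gut, the miR-802 arms, of liver and pancreas, and the miR-148a arms. miR-148a is abundant in liver but also made elsewhere. By the deposited loci miR-192 lies near miR-194-2 on chromosome 19, while miR-194-1 is on chromosome 1. None of the 9 passed (0 of 9, against 0% of all tested). Of the 9 estimates 7 were lower and 2 higher in gp49B KO, with a median log2 fold change of -0.35, while 52.6% of all tested miRNAs were lower, with a median of -0.03. With TMM 6 of 9 were lower in gp49B KO in both pools (27.2% of all tested), and on total UMIs 5 of 9 (20.8%). Both gp49B KO libraries lay below both WT libraries for 3 of 9 with TMM (11.6% of all tested) and for 2 of 9 on total UMIs (2.11%). With TMM these were miR-192-3p and both miR-802 arms, and on total UMIs they were both miR-192 arms. Arms of 1 hairpin are not independent. The counts of miR-802-3p were low, at 28 and 26 UMIs in gp49B KO pools 1 and 2, against 39 and 25 in WT pools 1 and 2. The list was chosen with earlier results known and is described only.

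**Figure D3:**
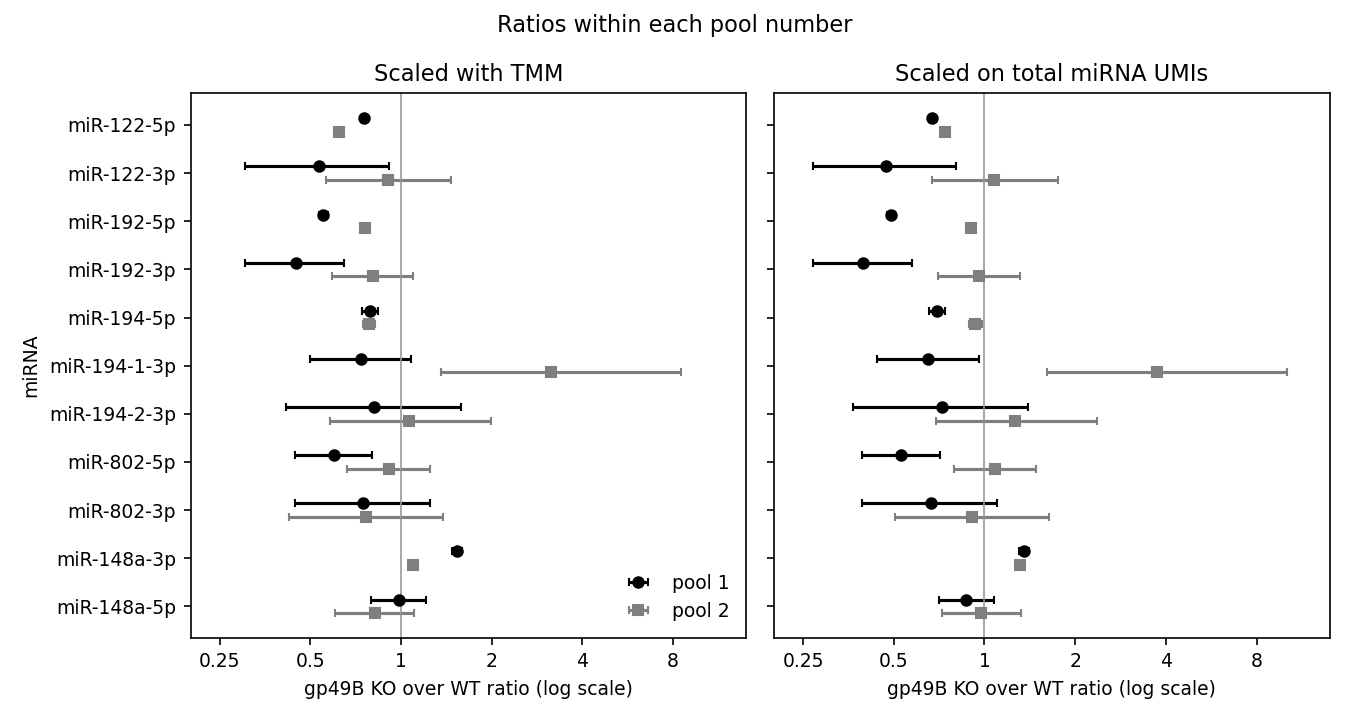
Ratio of gp49B KO over WT, on a log scale, for the miR-122 arms and the 9 other liver-enriched miRNA arms, within pool 1 (black circles) and pool 2 (grey squares), scaled with TMM (left) or on total miRNA UMIs (right). Bars are exact 95% intervals for counting error: miR-122-5p lies below 1 in all 4 comparisons, at 0.755 and 0.620 with TMM and 0.669 and 0.739 on total UMIs, while miR-148a-3p lies above 1 in all 4.

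The guide strand miR-192-5p took 0.315% and 0.487% of miRNA UMIs in gp49B KO pools 1 and 2, against 0.643% and 0.538% in WT pools 1 and 2. Its gp49B KO libraries lay below both WT libraries by share, with ratios of 0.489 in pool 1 and 0.905 in pool 2, while with TMM the genotypes overlapped. Its ratio of pool 2 over pool 1 was 0.837 on total UMIs and 2.47 with TMM in WT, and 1.55 and 3.40 in gp49B KO. In WT, but not in gp49B KO, the direction between pools thus turned with the scaling. That of miR-122-5p turned in neither genotype. The guide strand of miR-148a went the other way from miR-122-5p between genotypes: it took 0.374% and 0.695% in gp49B KO pools 1 and 2, against 0.276% and 0.531% in WT pools 1 and 2. Of the 9, the number higher in pool 2 in both genotypes was 1 on total UMIs, miR-148a-3p, and 5 with TMM. On total UMIs 10.8% of the 352 miRNAs that averaged at least 100 UMIs were higher in pool 2 in gp49B KO, and 10.5% in WT. The share higher in both genotypes, and any share with TMM, was not computed over all miRNAs, so these counts are description only. The pancreas and liver miRNA miR-802-5p had 74 and 93 UMIs in gp49B KO pools 1 and 2, against 129 and 75 in WT pools 1 and 2, so that its pool 2 ratio was 0.909 with TMM and 1.08 on total UMIs.

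Set against the 9 others, which needs no scaling, miR-122-5p had 8.57 and 15.3 UMIs per UMI of the 9 in gp49B KO pools 1 and 2, against 9.48 and 22.5 in WT pools 1 and 2. With the 9 summed it was lower in gp49B KO within each pool number, and the genotypes overlapped. Most UMIs of that sum came from miR-148a-3p and miR-192-5p. Set against miR-192-5p and miR-194-5p alone, miR-122-5p had 16.6 and 33.8 UMIs per UMI in gp49B KO pools 1 and 2, against 13.1 and 41.6 in WT pools 1 and 2, so within pool 1 it was then higher in gp49B KO. With all 9 the mean was 11.9 ± 4.74 in gp49B KO libraries and 16.01 ± 9.24 in WT libraries (SD, n = 2 each). This is a difference of -4.08 with a two-sided exact permutation p of 0.667. Without WT pool 2 the difference was 2.45, and with miR-192-5p and miR-194-5p alone it was -2.18.

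By pattern over the 4 libraries, the miRNAs closest to miR-122-5p were miR-106b-3p, miR-486b-5p, miR-486a-5p, miR-7237-5p and miR-375-3p. Closeness was the root mean square difference of log2(UMI + 1), each miRNA centred on its own mean, over 4 libraries, for 351 candidates that averaged at least 100 UMIs. It was 0.18 for miR-106b-3p, 0.23 for miR-486b-5p, a miRNA rich in red blood cells, 0.43 for miR-486a-5p, 0.43 for miR-7237-5p and 0.45 for miR-375-3p, a miRNA of pancreatic islets. The split of reads between miR-486a-5p and miR-486b-5p is uncertain, since they are near-identical copies. The miR-106b-3p share was 0.0442% and 0.0997% in gp49B KO pools 1 and 2, against 0.0556% and 0.117% in WT pools 1 and 2, the same order of libraries as for miR-122-5p. Of the liver list miR-148a-3p ranked 8 at 0.52 and miR-192-5p 13 at 0.64, and the passenger arm stood at 1.11. Closest to miR-122-3p were miR-6420 (0.16), miR-296-5p (0.16), miR-15b-3p (0.19), miR-3968 (0.22) and miR-1900 (0.24), each highest by share in WT pool 1.

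**Figure D4:**
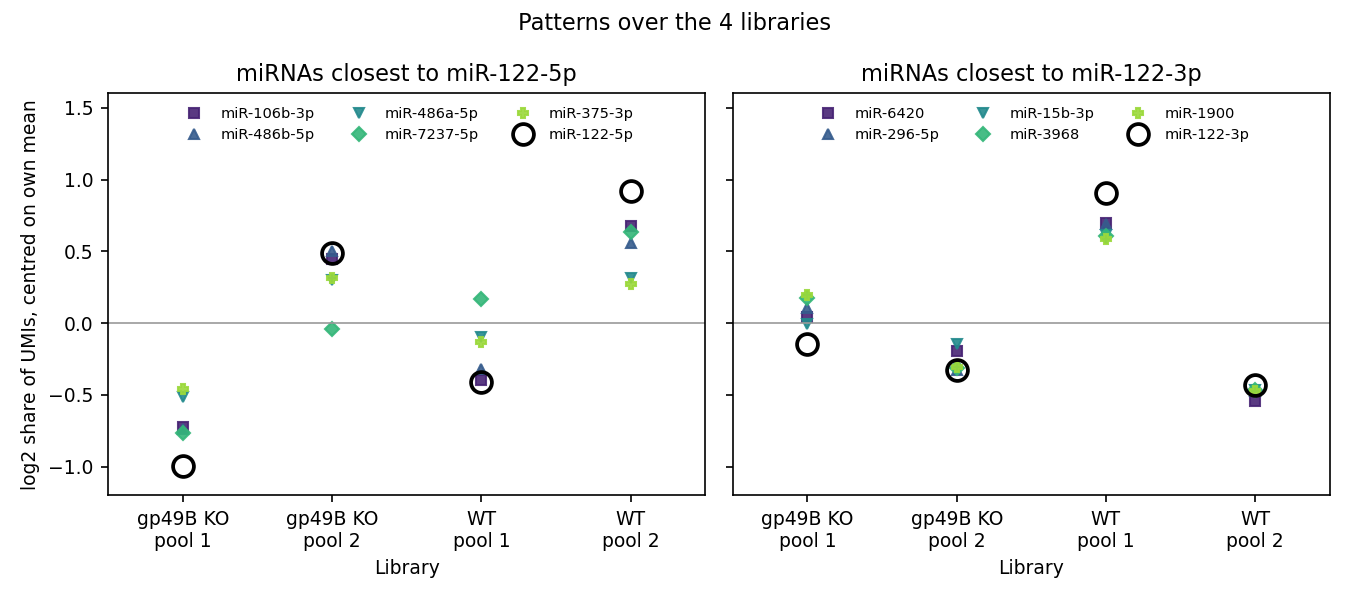
Log2 share of miRNA UMIs in each library, centred on the miRNA's own mean over the 4 libraries, for miR-122-5p (left) and miR-122-3p (right) as open circles, with the 5 miRNAs closest to each as filled symbols. The guide strand is high in both pool 2 libraries, as are miR-106b-3p (0.45 in gp49B KO and 0.67 in WT) and miR-486b-5p, while the passenger arm and the miRNAs closest to it are highest in WT pool 1.

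Markers of other cell types were measured beside miR-122-5p. The ratio of miR-451a, a red blood cell miRNA, to miR-23a-3p is used to grade hemolysis of plasma, and it was 0.173 and 0.805 in gp49B KO pools 1 and 2, against 0.367 and 0.976 in WT pools 1 and 2. This is the same order of libraries as for the miR-122-5p share, and its part in the result was not tested. By UMI count miR-451a alone was not in that order, at 2396 and 8636 in gp49B KO pools 1 and 2, against 2938 and 7281 in WT pools 1 and 2. For miR-23a-3p the counts were 13867 and 10729 in gp49B KO, against 8007 and 7461 in WT. The 6 red blood cell miRNAs together took 37.4% and 46.3% in gp49B KO pools 1 and 2, against 46.0% and 43.2% in WT pools 1 and 2, which is not the order of the miR-122-5p share. Most of that sum was miR-16-5p, at 29.4% and 28.5% in gp49B KO pools 1 and 2, against 35.4% and 24.8% in WT pools 1 and 2. Of the same list, miR-486b-5p did follow the order, at 6.35% and 15.0% in gp49B KO pools 1 and 2, against 8.49% and 15.7% in WT pools 1 and 2. So did miR-486a-5p. Per UMI of those 6, miR-122-5p had 0.189 and 0.425 in gp49B KO pools 1 and 2, against 0.229 and 0.616 in WT pools 1 and 2, and it was lower in gp49B KO within each pool number. The 4 muscle miRNAs took 3.73% and 0.690% in gp49B KO pools 1 and 2, against 0.404% and 0.428% in WT pools 1 and 2, and the 4 myeloid miRNAs 4.64% and 1.14% in gp49B KO, against 2.21% and 1.16% in WT. Both were highest in gp49B KO pool 1, where miR-122-5p was lowest, and their part in the result was not tested. The endothelial and platelet pair took 0.922% and 0.339% in gp49B KO pools 1 and 2, against 0.587% and 0.339% in WT pools 1 and 2. The 3 pancreas miRNAs took 0.0435% and 0.0557% in gp49B KO, against 0.0546% and 0.0537% in WT, and the neural pair 0.00749% and 0.00187% in gp49B KO, against 0.0103% and 0.00347% in WT. No marker in these lists was at 0 in any library.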

How the data were processed

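The authors deposited raw UMI counts and raw read counts for each mature miRNA. They also deposited normalized log2 values, in which each library's log2 UMI counts are shifted by a constant. Exosomes were precipitated with ExoQuick and libraries made with the QIAseq miRNA kit, per the labels' protocols. Per the submitters' processing notes, FastQC 0.11.9 and the GRCm38/mm10 build were used. Which aligner and counter the authors used was not given in the sources used here. Column names of the normalized tables of pool 2 depart from their labels, and were assigned by the file record, with counts identical to the series table.

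The 1809 miRNAs listed in all 4 libraries were used. Left out were 54 miRNAs that only pool 1 lists, 7 that only pool 2 lists, and all piRNAs. The genotype fit used edgeR 4.0.16 in R 4.3.3, with its default filter by expression (1797 miRNAs), TMM, quasi-likelihood F-test, two-sided, no block, adjusted p under 0.05. SEs are the fold change over the root of F. Shares were compared with exact permutation tests. The edgeR script was tested on simulated counts. Alternatives were other scalings, filters, denominators and units, pool number as a block, DESeq2 1.42.0, limma 3.58.1 and each library left out. Python 3.11.15, pandas 2.3.3 and SciPy 1.17.1 were used.

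The members and lists were chosen with earlier results of these data known. Named were both arms, the liver list, the most abundant miRNA of each library and the 5 miRNAs closest in pattern to each arm. List members are textbook knowledge. let-7i, miR-486b-5p in the sum of abundant miRNAs, and the ranking of arm imbalance were chosen after values were seen.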

Additional observations from a re-analysis of the deposited data

How the results depend on the processing

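Neither arm passed under any of the 16 alternatives to the edgeR fit, with adjusted p between 0.898 and 0.99996. The log2 fold change of miR-122-3p stayed negative under all 16, and that of miR-122-5p under 14. Leaving out 1 library at a time gave -2.49 to 1.43 for miR-122-5p and -1.01 to -0.02 for miR-122-3p, and 0 to 3 called miRNAs (3 without gp49B KO pool 2, 2 without WT pool 2). It gave -13.3 to 2.82 percentage points for the miR-122-5p share, -0.00150 to 0.000149 for the miR-122-3p share, -0.138 to 0.0803 for miR-122-3p per 1000 miR-122-5p and -10.6 to 2.45 for miR-122-5p per UMI of the other liver-enriched miRNAs. On a log2 scale the difference in miR-122-3p per 1000 miR-122-5p was 0.022, opposite in sign to the difference of means. The causes were not tested. The other alternatives for shares and ratios kept the sign of the difference of means, but some moved its size by more than 1.5 times. Leaving red blood cell miRNAs out of the total gave -9.28 points for miR-122-5p and -0.00136 for miR-122-3p, and leaving miR-122-5p itself out gave -8.00 for miR-122-5p. Against miR-192-5p and miR-194-5p alone the difference was -2.18, and within pool 1 it turned (16.6 in gp49B KO, 13.1 in WT). Pool number as a block in the edgeR fit gave -0.55 (SE 0.22, 95% interval -1.11 to 0.01) for miR-122-5p and -0.50 for miR-122-3p, each with an adjusted p of 0.898, called 0 miRNAs with 78 at an unadjusted p under 0.05, and changed no call. Same-numbered libraries deviated alike (Pearson r = 0.505 across 1797 miRNAs, which are not independent). They also shared their lists of features. The authors' log2 shifts were nearly opposite within each number. In pool 1 they were -0.028 in WT and 0.030 in gp49B KO, and in pool 2 they were 0.215 in WT and -0.209 in gp49B KO. Whether the deposited values share a scale across pool numbers was not tested. The labels tie the numbers to nothing shared. With 2 libraries per genotype, TMM scaling and pool number left out of the fit, the interval of miR-122-5p is wide (-3.76 to 2.46). Its width also went with the scaling. Scaled on total UMIs, still without a block, the estimate was -0.48 (SE 0.50, 95% interval -1.46 to 0.51). Counts of 22 to 43 UMIs limit miR-122-3p.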
